A study of Mus musculus with 4 samples.

Results

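Ly6h, Cadps, Ildr2 and Acot1 are 4 of the 32285 genes counted in single cells of mouse testicular organoids (TOs) and mouse testes. They were chosen by the size of their log2 fold change between Sertoli cells of TOs and of testes in these same libraries, so their difference in those cells is described here and not tested. The other cell types, and whether the same cells held the 4 mRNAs, were not part of that choice. TOs were grown from single-cell suspensions of testes of ICR mouse pups, which were reconstituted in basement membrane extract. The testes came from 28-day-old mice. The study names ICR mice for its work other than chimeric organoids, without naming these testes separately. The TOs were 28 days old by the series design and the study, and 21 days old by the dissociation protocol in the labels. The study counts TO age in days of culture, which leaves out the age of the pups. It is thus not a postnatal age like that of the testes. The TO medium of the study held follicle-stimulating hormone, testosterone and antioxidants. Each group had 2 libraries of unsorted cells (TO replicates 1 and 2, testis replicates 1 and 2). According to the study the sequenced TOs came from independent batches and the testes were biological replicates, but which animals or cultures went into each library is not given.

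Sertoli cells are the nurse cells of the seminiferous tubule. They hold germ cells in place, close the blood-testis barrier with junctions between neighbouring cells, and secrete fluid and proteins into the tubule. The 4 genes belong to different families and are mostly studied outside the testis. Ildr2 encodes a membrane protein of the angulin family, which marks the corners where 3 epithelial cells meet. Ly6h encodes a small cell-surface protein of the Ly6/uPAR family, attached to the membrane by a lipid anchor and best known from brain, where it restrains nicotinic acetylcholine receptors. Cadps encodes CAPS, which prepares dense-core vesicles for calcium-triggered release in neurons and endocrine cells. Acot1 encodes a cytosolic enzyme that splits long-chain acyl-CoA into free fatty acid and CoA, and in liver it is a target of the fatty acid receptor PPARα.

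In the GENCODE vM21 annotation of GRCm38, Ly6h lies on chromosome 15 (chr15:75551268-75567255, minus strand) and Cadps on chromosome 14 (chr14:12372563-12823079, minus strand). Ildr2 lies on chromosome 1 (chr1:166254139-166316823, plus strand) and Acot1 on chromosome 12 (chr12:84009490-84018371, plus strand). Cadps is by far the longest, with 450.517 kb of which 3.34% is exonic. Acot1 spans 8.882 kb and stands 15.616 kb from its close relative Acot2. Of the 50-base windows of the Acot1 transcript, 33.2% also occur in Acot2, Acot3, Acot4, Acot5 or Acot6, but none of those in the last 300 bases, the end that a 3′ library reads. The antisense gene Gm48239 lies over an exon of Cadps and had 6, 5, 0 and 1 UMIs in Sertoli cells of TO replicates 1 and 2 and testis replicates 1 and 2.

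The 150 bases before the start of the gene are shown so that the promoters of genes that stood out in the same cells can be compared (RefSeq, GRCm38.p6, transcribed strand). Of the 4 genes 3 matched, all but Ly6h. The RefSeq start of Acot1 lies just inside the GENCODE gene. Capitals mark CCAAT boxes (CCAAT), GC boxes (GGGCGG, or CCGCCC on the other strand) and the palindromic E-box CACGTG.
Cadps, chr14:12823080-12823229, minus strand: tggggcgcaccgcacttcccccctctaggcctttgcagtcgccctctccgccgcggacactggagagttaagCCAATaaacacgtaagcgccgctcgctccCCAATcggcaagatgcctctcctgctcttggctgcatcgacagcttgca
Ildr2, chr1:166253989-166254138, plus strand: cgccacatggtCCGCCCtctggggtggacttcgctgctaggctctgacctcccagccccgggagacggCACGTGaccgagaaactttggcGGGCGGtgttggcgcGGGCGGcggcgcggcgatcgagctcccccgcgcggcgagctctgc
Acot1, chr12:84009352-84009501, plus strand: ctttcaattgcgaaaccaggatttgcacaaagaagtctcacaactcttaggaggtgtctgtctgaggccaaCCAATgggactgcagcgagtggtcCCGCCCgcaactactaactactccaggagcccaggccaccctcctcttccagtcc
Their GC content was 62.0%, 73.3% and 54.7%. Over the whole 300 bases from 250 before to 50 after the start, both strands searched, Cadps had 2 CCAAT boxes and 0 GC boxes, Ildr2 had 0 CCAAT boxes and 3 GC boxes, and Acot1 had 1 of each. CCAAT occurred in 37.4% and GGGCGG in 35.7% of all 32851 promoters of that length. CACGTG, found in 1 copy before Ildr2, occurred in 7.15%. None of the 3 held a TATA box (TATAAA, 13.6% of promoters) or a cAMP response element (TGACGTCA, 1.79%).

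After removal of likely doublets and filtering, 37898 cells remained (9802, 8713, 9867 and 9516 in the order above), and 260 of 50879 barcodes occurred in more than 1 library. Sertoli cells, named by markers such as Sox9, Wt1 and Cldn11, numbered 1539 and 728 in TOs and 471 and 162 in testes, with a median of 10055, 11369, 6113 and 8483.5 UMIs per cell. All 8 Sertoli markers had UMIs in each library, though Amh in only 4.03% and 1.10% of TO Sertoli cells. Their summed level was 8114 and 8448 CPM (counts per 1000000 UMIs of the same cells) in TOs against 4935 and 5128 in testes. Most of that sum was Aard, at 5271 and 5906 CPM in TOs and 3100 and 3370 in testes. Amh (4.52 and 1.08 CPM against 20.9 and 6.78) and Fshr (106 and 126 against 143 and 164) were lower in TOs, and Rhox8 overlapped. Spermatid markers moved with the groups: their summed level in Sertoli cells was 4.17 and 5.39 CPM in TOs and 2074 and 4573 CPM in testes, and the protamine gene Prm1 was seen in 98.5% and 99.4% of testis Sertoli cells. The part of this spermatid RNA in the differences below was not tested.

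In TO Sertoli cells each of the 4 mRNAs was easily counted, whereas in testis Sertoli cells all 4 were near the limit of detection. Ildr2 had 1657 and 1028 UMIs in the TO libraries against 12 and 1 in the testis libraries, replicate 1 first. As CPM these were 115, 138, 4.64 and 0.847. Both TO libraries were high and close to each other, and the testis libraries lay far below them.

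Ly6h had 982 and 1478 UMIs in TOs and 1 UMI in each testis library, or 68.3, 199, 0.386 and 0.847 CPM. It was the gene with the deepest gap, and also the one on which the TO libraries disagreed most. Cadps had 2202, 1458, 13 and 2 UMIs, or 153, 196, 5.02 and 1.69 CPM. Acot1 had 970, 802, 5 and 5 UMIs, or 67.4, 108, 1.93 and 4.24 CPM. The groups did not overlap for any of the 4 genes, but the genes were chosen for this difference, so that is no result of its own.

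**Figure D1:**
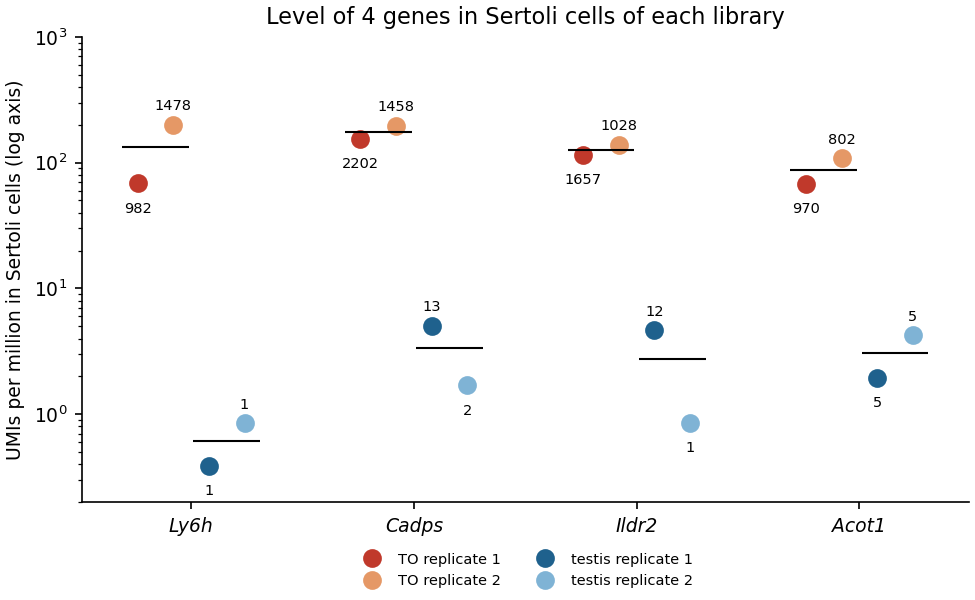
Level of the 4 genes in Sertoli cells of each library in CPM, on a log axis. Points are libraries, the number at a point is its UMI count and lines are means of 2 libraries; every TO point lies at or above 67.4 and every testis point at or below 5.02.

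The log2 fold change between TOs and testes, from a fit over 12547 genes, was 7.99 for Ly6h (SE 1.00), 5.53 for Cadps (SE 0.36), 5.28 for Ildr2 (SE 0.39) and 5.07 for Acot1 (SE 0.46). By fold the genes stood at ranks 2, 10, 17 and 19. In the same fit 850 genes, or 6.77%, were called higher in TOs (adjusted p below 0.01 and log2 fold change above 1). Among those called genes with a mean of at least 50 CPM in either condition, the 4 were ranks 1, 3, 4 and 6. Wnt4 (6.40) and Tesc (5.08) stood between them and Igfbp3 (5.07) just after Acot1. The 4 genes were chosen by this fold, so neither their ranks nor their passing of the threshold is a result. The fold of Ly6h rests on 2 UMIs in testes, and the ratio of its pooled CPM was 213 with a 95% counting interval from 58.8 to 1756. The same ratio was 42.2 for Cadps (25.5 to 75.4), 35.7 for Ildr2 (20.8 to 67.1) and 30.6 for Acot1 (16.6 to 64.0). Intervals cover counting error only. Without testis replicate 1 the log2 fold change of Cadps was 6.74 and that of Ildr2 7.26, and without doublet removal that of Cadps was 4.04. Without TO replicate 2, the deeper Ly6h library, the log2 fold change of Ly6h was 6.95, and without TO replicate 1 it was 8.53.

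Between 31.8% and 63.2% of TO Sertoli cells held a UMI of a given member of the 4. Ildr2 was seen in 50.0% and 58.4% of them, replicate 1 first, Cadps in 42.5% and 46.3%, Acot1 in 40.9% and 57.3%, and Ly6h in 31.8% and 63.2%. In testis Sertoli cells the shares ran from 0.212% to 3.09%. Macrophages, immune cells used here as the background for stray RNA, held Ly6h in 1.11% and 0.719% of TO cells, Cadps in 1.48% and 0.576%, Ildr2 in 3.33% and 0.576% and Acot1 in 7.04% and 2.45%, at median depths of 6326.5 and 5981 UMIs. The shares of TO Sertoli cells were far above this background. In testis macrophages Ly6h and Cadps were seen in 0 of 232 and 0 of 148 cells, which allows up to 1.29% and 2.03%, at median depths of 3069.5 and 4283.5 UMIs.

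Depth differed between groups, so each cell was also thinned to 1500 UMIs, which left out 23 and 10 TO Sertoli cells. The shares then fell to 15.7% and 17.1% for Ildr2, 17.6% and 17.8% for Cadps, 8.71% and 14.8% for Acot1 and 8.18% and 21.2% for Ly6h. In testes no thinned Sertoli cell held Ly6h or Acot1, with 0 of 471 and 0 of 162 cells, which allows up to 0.637% and 1.85%. Cadps was left in 0.637% and 0.617% of thinned testis Sertoli cells and Ildr2 in 0.212% and 0. The gap between TOs and testes was therefore present at equal depth. At 1500 UMIs the 95% binomial intervals of the TO libraries did not overlap for Ly6h and Acot1, and overlapped for Cadps and Ildr2.

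**Figure D2:**
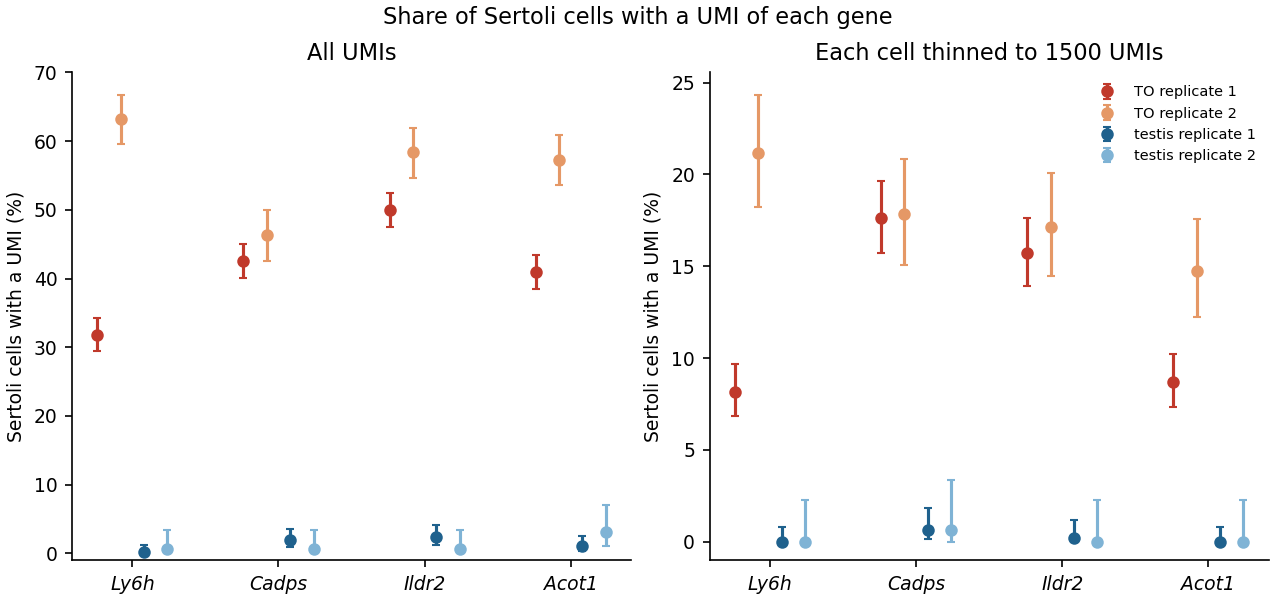
Share of Sertoli cells with at least 1 UMI of each gene, in percent, with all UMIs on the left and after thinning each cell to 1500 UMIs on the right. Points are libraries and bars are exact 95% binomial intervals; TO shares lie above testis shares for every gene at both depths.

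Sertoli cells fell into 4 clusters, and the genes were not spread over them alike. The 4 genes were left out of the genes used for clustering, but the values are a description, since clusters rest on many genes of the same cells. Cluster 6 (1814 cells) and cluster 13 (778 cells) had cells of both groups. Cluster 28 (103 cells) came from testis replicate 2 alone and held 1, 2, 1 and 4 UMIs of Ly6h, Cadps, Ildr2 and Acot1. Cluster 26 (205 cells) had a low median of 2216 UMIs per cell, and all of its 10 leading genes, Cadps among them, span over 100 kb, against 0 of 10 in clusters 6 and 13.

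In CPM, Cadps was graded over the clusters of both TO libraries, at 110 and 170 in cluster 6, 236 and 281 in cluster 13 and 632 and 655 in cluster 26. Ildr2 followed the same order in both libraries, from 92.8 and 128 CPM in cluster 6 to 177 and 174 in cluster 13 and 197 and 298 in cluster 26. Ly6h did not: it stood at 70.8 and 208 CPM in cluster 6, at 65.2 and 172 in cluster 13 and at 23.9 and 0 in cluster 26. Acot1 was also lowest in cluster 26, at 34.5 and 39.7 CPM against 61.4 and 105 in cluster 6. The lower median mitochondrial share of cluster 26 moved with these values, at 3.91% and 1.45% against 6.41% and 7.71% in cluster 6. Its part was not tested. Cluster 26 had only 25 cells in TO replicate 2, with 33 UMIs of Cadps and 2 of Acot1.

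**Figure D3:**
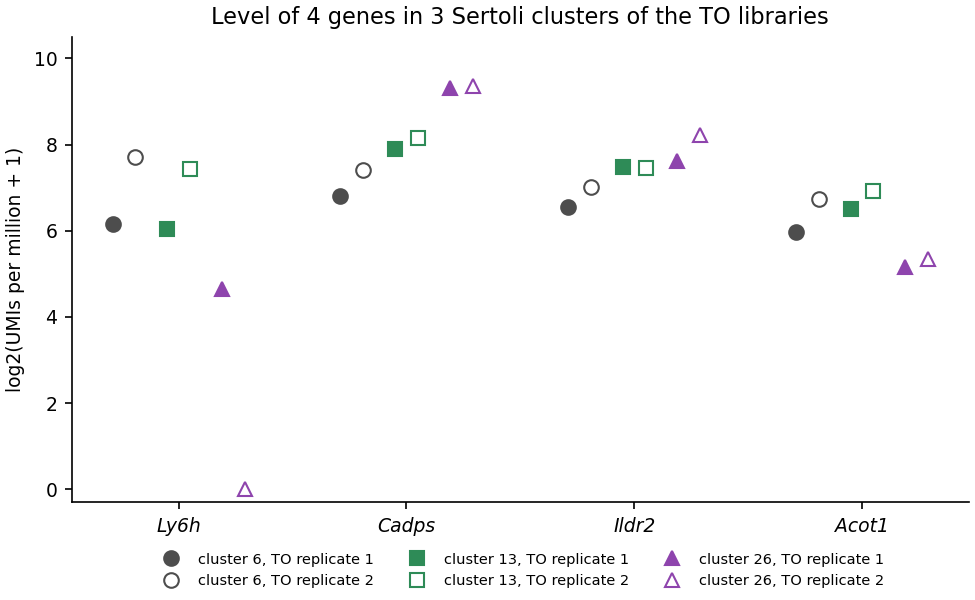
Level of the 4 genes in Sertoli clusters 6, 13 and 26 of the TO libraries, as log2(CPM + 1). Filled symbols are TO replicate 1 and open symbols TO replicate 2; Cadps is highest and Ly6h and Acot1 are lowest in cluster 26 in both libraries.

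Whether the same TO Sertoli cells held the 4 mRNAs together depended on the pair and on the depth. At 1500 UMIs, 59.0% of cells of TO replicate 1 held none of the 4, 32.9% held 1, 7.12% held 2 and 0.923% held 3, and 1 cell held all 4. If each gene were placed in cells without regard to the others, the product of the 4 shares gives 58.2%, 34.0%, 7.11% and 0.625%. In TO replicate 2, 45.1% held none, 40.4% held 1, 12.95% held 2, 1.53% held 3 and 0 cells held all 4, against 45.8%, 39.6%, 12.7% and 1.81% from the product. At this depth most cells that held 1 of the mRNAs held no other.

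For each pair, the share of cells with the second gene was compared between cells with and without the first, and averaged over both directions. The mean over the 6 pairs was 1.22 percentage points in TO replicate 1 and -1.49 in TO replicate 2, so it differed in sign between libraries. Thinned to 3000 UMIs instead, it was 3.64 and 1.30, and with all UMIs 9.34 and 17.4. Within 3 bins of the cells by depth, from the shallowest to the deepest and with all UMIs, it was 7.36, 6.32 and 7.35 in TO replicate 1 and 15.3, 8.45 and -2.05 in TO replicate 2. It was thus above 0 in every bin of TO replicate 1 and in all but the deepest of TO replicate 2. The shallowest bin ran from 1282 to 8557 UMIs in TO replicate 1 and from 1382 to 9635 in TO replicate 2. Depth therefore still varied within a bin.

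Cadps and Ildr2 were found together more often than the other pairs in 3 of 4 readings. In TO replicate 1, 25.5% of cells with Cadps (95% interval 20.4% to 31.1%) and 13.6% of cells without it held Ildr2 at 1500 UMIs. In TO replicate 2 these shares were 18.0% (11.7% to 25.7%) and 16.9%, which did not differ beyond counting error. At 3000 UMIs the shares with and without Cadps were 40.1% and 22.6% in TO replicate 1 and 43.2% and 29.0% in TO replicate 2, higher with Cadps in both. Within cluster 6 the difference for this pair at 1500 UMIs was 8.73 percentage points in TO replicate 1 and -0.94 in TO replicate 2, and within cluster 13 it was 16.2 and 4.80. The other 5 pairs lay between -4.57 and 4.38 percentage points at 1500 UMIs and between -7.96 and 4.42 at 3000 UMIs. Cells are not replicates of a condition, so no test was made.

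**Figure D4:**
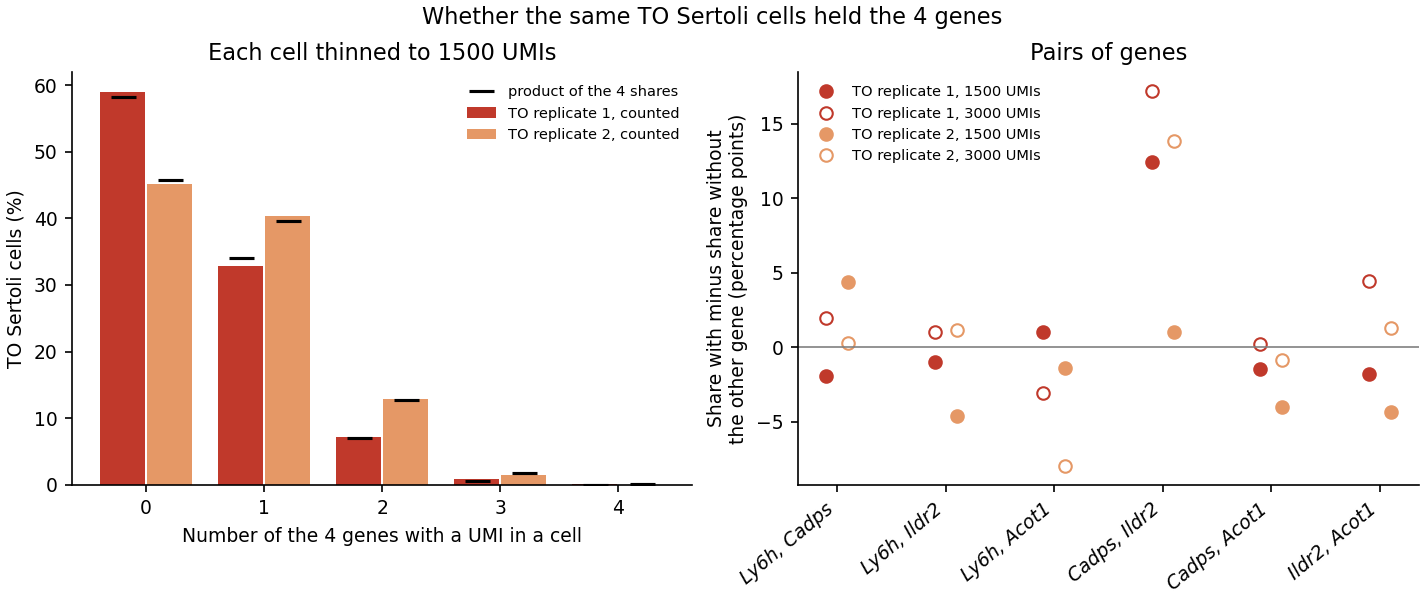
On the left, percentage of TO Sertoli cells with a UMI of 0 to 4 of the genes after thinning to 1500 UMIs (bars) beside the product of the 4 shares (lines). On the right, share of cells with a gene among cells with the other minus cells without it, in percentage points, for each pair at 1500 UMIs (filled) and 3000 UMIs (open); Cadps with Ildr2 is the highest pair in 3 of the 4 series of points.

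Ly6h, Cadps and Ildr2 were largely a Sertoli signal in TOs, and Acot1 was not. Sertoli cells made up 15.7% and 8.36% of all kept TO cells, by library, and held 89.8% and 87.0% of their Cadps UMIs, 82.5% and 82.3% of their Ly6h UMIs and 79.4% and 83.6% of their Ildr2 UMIs. Of the Acot1 UMIs they held 14.7% and 18.3%. Leydig cells, the steroid-making cells between the tubules, held most of the rest. For the other cell types, which the choice of genes did not use, TOs were compared with testes on UMIs summed per library and type. In 8 named types, 20 of 32 gene and type pairs had enough counts, and 9 were called by edgeR, all of them higher in TOs. The filter on counts can be met by the TO libraries alone. A pair with few testis UMIs that passed in this way could hardly come out lower, so the shared direction is no separate result. Of the 9 calls, 2 were outside cluster 23 and spermatids, whose TO cells had far lower levels of the markers of the name than the testis cells. The calls by type follow, each beside the share of all genes that was called higher there.

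Acot1 was highest in Leydig cells of TOs (209 ± 86.6 CPM, SD, n = 2) and in cluster 23, described below (178 ± 27.3), which overlapped, and lower in TO Sertoli cells (87.7 ± 28.7), which did not overlap with either. In Leydig cells it had 4924 and 2769 UMIs in TOs and 31 and 64 in testes, or 270, 148, 8.61 and 18.8 CPM. The groups did not overlap, with a log2 fold change of 3.84 (SE 0.48, adjusted p = 0.00155), in a type where 2.01% of genes were called higher. The call was lost with no filter on low counts (adjusted p = 0.025), where edgeR called 0 of all 24558 genes (6951 at an unadjusted p below 0.05) and DESeq2, with the filter, called 592 higher and 2297 lower, and when genes with 5 times higher CPM in other cells were left out (adjusted p = 0.0112), over a range from 1.78e-14 to 0.025 in 14 alternatives. Acot1 was seen in 50.9% and 46.1% of TO Leydig cells, with 5.70 and 3.86 UMIs per cell that had any. Leydig cells of TOs also fell into clusters. Cluster 2, which held 563 of 568 and 335 of 341 testis Leydig cells, had 302 and 169 CPM in TOs and 8.65 and 19.0 in testes, whereas cluster 18, with 267 and 318 TO cells and 2 in each testis library, had 68.4 and 56.97. Leydig markers were at 9386 and 3730 CPM in TOs and 12860 and 17915 CPM in testes, and the part of this difference in the result was not tested.

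Sertoli RNA in the Leydig sums was measured beside Acot1. Per 1000 UMIs of Sertoli markers, Acot1 had 8.31 and 12.8 UMIs in TO Sertoli cells and 867 and 721 in TO Leydig cells. Ly6h, Cadps and Ildr2 were low in Leydig cells. In TO Leydig cells they had 1.15 and 2.14, 2.52 and 4.00, and 5.16 and 2.56 CPM, and per 1000 Sertoli marker UMIs Ly6h had 3.70 and 10.4 there against 8.41 and 23.6 in Sertoli cells. Their adjusted p in Leydig cells was 0.0407, 0.0495 and 0.0132, and none was called. In testis Leydig cells Ly6h and Ildr2 had 0 UMIs in both libraries, where 3 UMIs would be 0.833 and 0.883 CPM.

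All 4 genes were called higher in cluster 23, which the markers named endothelial, but most of those markers were low in its TO cells. Of 67 and 79 TO cells, 0 held Pecam1, and the summed endothelial markers were at 257 and 136 CPM against 2995 and 2380 in the 132 and 87 testis cells. Most of the TO sum was Kdr, a receptor gene of the vascular growth factor VEGF, seen in 52.2% and 44.3% of the TO cells (226 and 116 CPM), and Egfl7 was seen in 10.4% and 10.1%. Their Sox9 level was 286 and 240 CPM, Cldn11 stood at 680 and 576, and they were led by Rmst, Plet1, Wfdc2, Pax8 and Cldn3. When libraries were not joined, all 146 TO cells formed a cluster of their own, and the 132 and 87 testis cells formed another, named endothelial. The comparison in this cluster is thus between cells with different markers. It does not measure a change within a cell type.

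All 4 genes were readily counted in these TO cells. Ly6h had 39 and 65 UMIs (87.2 and 93.0 CPM), Cadps 18 and 20 (40.3 and 28.6 CPM), Ildr2 33 and 38 (73.8 and 54.4 CPM) and Acot1 71 and 138 (159 and 197 CPM). These Pax8- and Wfdc2-led cells thus had a higher Acot1 level in CPM than TO Sertoli cells did. They had less Cadps and less Ildr2, and their Ly6h lay between the Sertoli values of the TO libraries. In the testis cells of the cluster the genes had 0, 2, 4 and 1 UMIs in all. The log2 fold changes were 8.67 for Ly6h, 4.07 for Cadps, 4.05 for Ildr2 and 7.32 for Acot1, with adjusted p between 7.69e-06 and 0.00122, where 12.3% of genes were called higher. Ly6h would be left out in this cluster by the rule on genes at least 5 times higher in other cells.

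Cells named spermatids also differed in their markers. In the 123 and 81 TO cells of that name the spermatid markers were at 195 and 634 CPM against 9279 and 43879 in testes, and the Sertoli markers at 3490 and 807 CPM against 49.0 and 32.7. In TO replicate 2, Acrv1 was seen in 28.4%, Tex36 in 25.9% and Spaca1 in 24.7% of these cells, but Prm1 in 0. Ly6h (7 and 7 UMIs in TOs), Ildr2 (26 and 5) and Acot1 (20 and 7) were called higher there, with log2 fold changes of 6.22, 3.40 and 7.35 and adjusted p of 0.00234, 0.00736 and 0.00225. In this type 11.5% of genes were called higher. Per 1000 Sertoli marker UMIs, Ly6h had 3.79 and 22.1, Ildr2 14.1 and 15.8 and Acot1 10.8 and 22.1 UMIs in these TO cells. In TO Sertoli cells they had 8.41 and 23.6, 14.2 and 16.4, and 8.31 and 12.8. The part of Sertoli RNA in the calls was not tested. In TO replicate 1, 18 of the 26 Ildr2 UMIs and 17 of the 20 Acot1 UMIs were in 20 cells of cluster 3. Cadps was not called (log2 fold change 0.04, SE 0.58). The call of Ildr2 was lost in 6 of 13 alternatives, with an adjusted p of 0.108 without TO replicate 1 and 0.0192 without TO replicate 2. Acot1 lost it without TO replicate 2 (adjusted p = 0.0192), and Ly6h with no upper limits on genes and UMIs per cell (adjusted p = 0.011). Without TO replicate 1 and without TO replicate 2 edgeR called 0 of all 20222 and 20428 genes in this type (7405 and 9825 at an unadjusted p below 0.05), while DESeq2 on all libraries called 2806 higher and 3422 lower, so those losses are not particular to Ildr2 or Acot1. With any 1 library left out Ly6h was too low to test, as was Acot1 without TO replicate 1. The rule on genes at least 5 times higher in other cells would leave out Acot1 in this type.

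In the other types the genes were low. Acot1 was called higher in spermatocytes, where 6.81% of genes were, on 13 and 11 UMIs in TOs against 0 and 1 in testes (log2 fold change 4.66, SE 0.99, adjusted p = 0.00391). Without testis replicate 1 the adjusted p was 0.0615, without testis replicate 2 it was 0.0202, and in DESeq2 it was 0.0297. Sertoli markers moved with this result, at 341 and 122 CPM in TO spermatocytes against 39.5 and 22.5 in testes, and their part in it was not tested. Per 1000 Sertoli marker UMIs, Acot1 had 21.0 and 32.0 UMIs in TO spermatocytes, above the 8.31 and 12.8 in TO Sertoli cells. In TO macrophages, the background for stray RNA, it had 34.2 and 32.4, on 21 and 17 UMIs of Acot1. The part of RNA from Leydig cells, which held more Acot1, was not tested. The rule on genes at least 5 times higher in other cells would leave it out here. In spermatogonia and stromal cells Acot1 had 11.3 and 5.17, and 19.7 and 18.5 CPM in TOs against 1.40 and 2.89, and 4.33 and 11.0 in testes. It was not called in either (adjusted p = 0.043 and 0.0494, with 0.775% and 1.85% of genes called higher). Ly6h had 5.16 and 5.56 CPM in TO stromal cells and 0 UMIs in testis stromal cells (adjusted p = 0.0134), at least 4.79-fold higher with 3 UMIs over both testes as the floor. Sertoli markers were also higher there, at 597 and 270 CPM against 126 and 109, and per 1000 of their UMIs Ly6h had 8.63 and 20.6 UMIs, near the 8.41 and 23.6 in TO Sertoli cells. In macrophages and peritubular cells, where 3.35% and 8.83% of genes were called higher, none of the 4 had enough counts for the test.

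One unnamed cluster was large enough to add. Cluster 1, led by the muscle genes Acta2, Tnnt2 and Myh11, had 115 Ly6h and 143 Ildr2 UMIs in TOs and 0 of either in testes. Both genes therefore entered the test through their TO counts. Both were called higher (adjusted p = 0.00888 and 0.00947, with 4.13% of genes called higher there). At a floor of 3 UMIs over both testes, Ly6h was at least 3.96-fold and Ildr2 at least 4.92-fold higher. Per 1000 Sertoli marker UMIs, cluster 1 of TOs had 9.49 and 26.1 UMIs of Ly6h and 16.8 and 20.6 of Ildr2, close to the 8.41 and 23.6, and 14.2 and 16.4, in TO Sertoli cells. The summed Sertoli markers were at 512 and 210 CPM in TOs and 212 and 212 CPM in testes, and the rule on genes higher in other cells would leave out both genes. Both calls were lost in DESeq2, with no filter on low counts and without either testis library.

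Outside TOs, 2 of the genes had their testis signal in germ cells. Ildr2 in spermatogonia was at 11.9 and 9.38 CPM in testes and 13.9 and 6.89 in TOs, the highest testis level of any type, and did not differ between groups beyond the spread (log2 fold change -0.08, SE 0.43). The 95% counting interval of the ratio of TOs to testes ran from 0.697 to 1.48. Cadps had most of its testis UMIs in spermatids, 183 of 209 and 149 of 158, at 6.68 and 4.64 CPM. Those levels were close to or above the 5.02 and 1.69 CPM of Cadps in testis Sertoli cells, which also carried spermatid RNA.

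**Figure D5:**
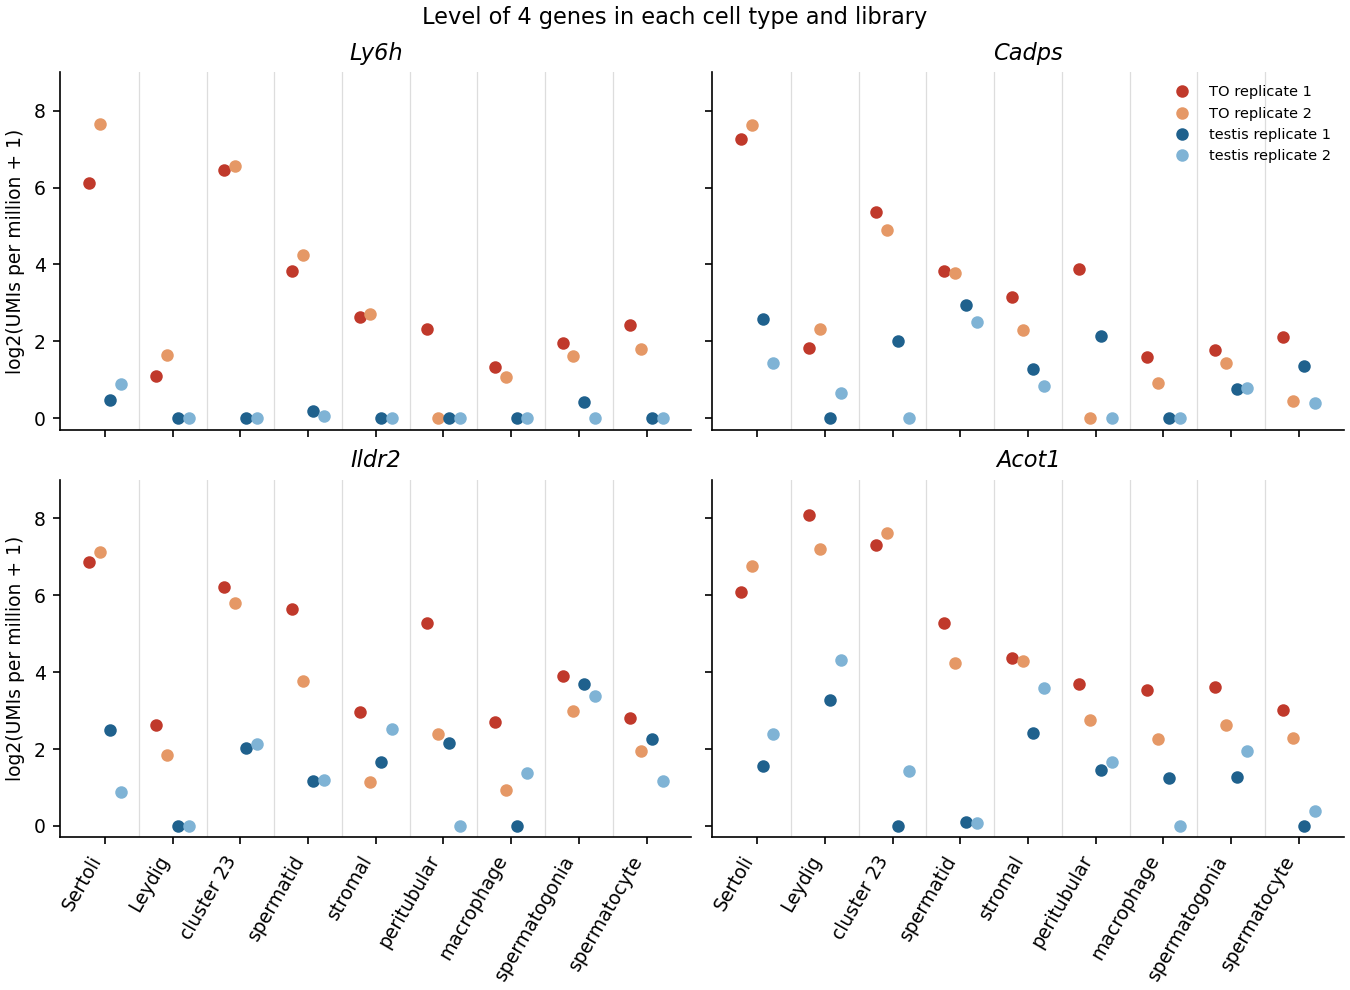
Level of each gene in 9 cell types as log2(CPM + 1), with TO libraries in red and orange and testis libraries in blue. Cluster 23 is the cluster named endothelial; Ly6h, Cadps and Ildr2 are high in Sertoli cells and cluster 23 of TOs, and Acot1 also in Leydig cells.

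Genes with the most similar pattern were sought over 43 profiles, each a cell type or cluster in 1 library, among 24291 genes. Scin, which encodes the actin-severing protein adseverin, was first for Ly6h (Pearson r = 0.88) and Cadps (r = 0.92) and second for Ildr2 (r = 0.84). For Ly6h it was followed by Cadps, Scx, Gm15498 and Clca3a2, and for Cadps by Ly6h, Prrg4, Ildr2 and Clca3a2. Ildr2 had Cadps first (r = 0.84), then Scin, Ly6h, Prrg4 and Mpzl2. Ildr2 ranked 6 for Ly6h. Acot1 had others, namely Rgs11 (r = 0.85), Hspb8, Gm49708, Zfhx4 and Zfand1, and ranked 35, 243 and 360 for Ly6h, Cadps and Ildr2. In Sertoli cells Scin had 19.9, 23.2, 1.16 and 0.847 CPM and Hspb8 82.7, 64.3, 0 and 0. The profiles share libraries and depth, and the choice of genes raised r between the 4, so these values describe and are not tested.

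Relatives of the 4 genes differed from them in size. Of 67 tested genes on 5 lists of relatives and partners, without the 4 genes, 18 were called in Sertoli cells, 8 higher and 10 lower in TOs, where 6.77% and 15.6% of all genes were. Leaving out cluster 28, the testis cluster of 1 library, gave 6 calls, all lower. All 10 lower calls but Gml and Pex11a had a higher CPM in spermatids than in Sertoli cells of both testes. None of the 8 higher ones did.

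In the angulin and tight junction list, Lsr was the 1 call among 2 tested genes. Lsr encodes the angulin that recruits tricellulin to cell corners, and it had 660 and 855 CPM in TO Sertoli cells and 293 and 351 in testes (log2 fold change 1.30, SE 0.22, adjusted p = 0.00317). Its level was above that of Ildr2 in every library, as UMIs at transcript ends, which do not scale with transcript length. Ildr1 had 0 UMIs in Sertoli cells of all libraries. Ocln was not called (log2 fold change 0.68, adjusted p = 0.103).

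Of the Ly6/uPAR family, 8 relatives were tested, of which 1 was called higher and 4 lower, with a median log2 fold change of -2.46 against 0.02 for all genes. The lower ones were led by the sperm membrane gene Spaca4 (-8.80), Lypd4 (-5.56) and Gml (-3.39). Spaca4 had 0.139 and 0 CPM in TO Sertoli cells and 71.5 and 24.6 in testes, beside 334 and 109 in testis spermatids. Ly6e, at 155 and 90.3 CPM in TOs and 51.8 and 23.7 in testes, had a log2 fold change of 1.66 and an adjusted p of 0.0106, and was not called.

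Of 26 tested genes of regulated exocytosis, 3 were called and 23 were not, with a median of 0.07. Stx4a (1.18) and Vamp8 (1.03), SNARE genes of the plasma membrane and of vesicles, were higher, and Stx2 (-1.83) was lower. Stx4a had 78.5 and 76.1 CPM in TOs and 30.1 and 43.2 in testes. Cadps2, the paralog of Cadps, had 162 and 64 UMIs in TOs and 4 and 2 in testes but was left out of the fit, because other cells held at least 5 times as much.

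Among 9 tested acyl-CoA thioesterases, Acot2 was called higher, and Acot7 (-3.67) and Acot10 (-6.03) lower. Acot2, the mitochondrial neighbour of Acot1, had 122, 63, 4 and 0 UMIs in Sertoli cells (log2 fold change 3.06, SE 0.66, adjusted p = 0.00963). Like Acot1, Acot2 was higher in Leydig cells of TOs (48.7 and 24.4 CPM) than in Sertoli cells of TOs (8.48 and 8.49 CPM). Of 22 tested fatty acid genes of the PPAR type, 3 were called higher and 3 lower, with a median of 0.48. Decr1 (1.55), an enzyme of fatty acid oxidation, was the highest, and Cpt1b (-3.33) and Acsl1 (-1.91) were the lowest. Decr1 had 33.7 and 31.1 CPM in TOs and 11.2 and 11.9 in testes.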

How the data were processed

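Single-cell RNA-seq libraries of 2 TO and 2 testis samples were made with 10x Genomics 3′ chemistry. The authors deposited raw UMI counts per gene and barcode, made with Cell Ranger 7.1.0 against mm10 according to the submitters' processing notes. Whether intronic reads were counted is not given in the sources used here. The libraries held 106577822, 119966959, 77016449 and 74988295 UMIs in 14643, 12491, 12179 and 11826 barcodes.

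Likely doublets were removed with Scrublet (scanpy 1.11.5) at 0.8% per 1000 barcodes, which the study did with another tool. A cell was kept if it had 1000 to 5000 genes, no more than 20000 UMIs and a mitochondrial share of 10% or less. Variable genes (2002, without the 4 genes), 30 principal components, a rewritten Harmony (theta 2, sigma 0.1, lambda 1) and Leiden clustering (leidenalg 0.10.2, igraph 0.11.9, resolution 1, 20 neighbours) gave clusters. A cluster was named from at least 3 markers detected in at least 10% of its cells, so names are rebuilt and can differ from the study. Cluster 30, led by Sertoli genes, was left unnamed by a rule added after the clusters were seen.

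UMIs were summed per library and type and tested in R 4.3.3 with the quasi-likelihood test of edgeR 4.0.16 (TMM, filterByExpr, Benjamini-Hochberg adjustment over all genes tested), checked on simulated counts. A gene was called when its adjusted p was under 0.01 and its log2 fold change exceeded 1 in size. In Sertoli cells, genes at least 5 times higher in other cells of either condition were left out. P-values measure only the spread between libraries. DESeq2 1.42.0 was an alternative. Shares were given after thinning to 1500 UMIs, with exact 95% binomial intervals. A count of 0 was bounded by 3 counts. Named genes were the 4 genes, the 5 genes most similar in log2(CPM + 1) to each, the 3 called genes of largest fold in each list, and close relatives. Cluster leaders, markers and genes beside the 4 in the ranking by fold are named by their place. Ocln was named after its values were seen.

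The 4 genes and the lists were chosen with earlier results of these data known. Positions are from GENCODE vM21 (32158 of 32285 IDs matched) and promoters from RefSeq. Other software was limma 3.58.1, Python 3.11.15, scikit-learn 1.9.0, scipy 1.17.1, pandas 2.3.3, edlib 1.3.9.post1, numpy 2.4.6 and matplotlib 3.10.9.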

Additional observations from a re-analysis of the deposited data

Results flagged for a closer look

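All 4 genes were also counted in barcodes that the filters left out (doublets, over the upper or mitochondrial limits, or under the gene minimum), which the main comparisons did not use (alternatives without doublet removal or upper limits brought some of them back), at levels above those in the left-out barcodes of the testes. Cadps had 87.2 and 63.2 CPM in the 4841 and 3778 left-out barcodes of TO replicates 1 and 2, against 4.64 and 2.30 in the testes. Among TO barcodes over the mitochondrial limit it reached 226 and 121 CPM. Ildr2 had 51.3 and 44.3 CPM against 1.496 and 1.56. Ly6h had 21.4 and 52.2 CPM against 0.187 and 0.284, and Acot1 had 124 and 100.007 CPM against 0.842 and 1.06. The left-out barcodes held between 42.7% and 64.4% of the UMIs of each gene in a TO library.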

How the results depend on the processing

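In Sertoli cells the 4 log2 fold changes stayed above 4 under every alternative run. Without 1 library they ranged from 6.95 to 8.53 for Ly6h, 5.18 to 6.74 for Cadps, 4.83 to 7.26 for Ildr2 and 4.43 to 5.55 for Acot1. That of Cadps was 4.04 with no doublet removal. The replicate block gave 7.70, 5.46, 5.23 and 4.96, with 12 calls in other types and 22 on the lists. The labels do not say that a number marks a batch, and same-numbered libraries deviated together with r = 0.13 in Sertoli cells, so the pairing is only a shared number.

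The 9 calls in other types became 5 with genes higher in other cells left out, 2 without Harmony (6 types), 2 without cluster 23 and spermatids, and 5 to 7 without 1 library, the lowest without TO replicate 1. The 18 list calls became 6 without cluster 28, when 253 of all genes were called higher and 1458 lower, against 850 and 1955. The difference in share of cells between TOs and testes was 14.7, 17.1, 16.3 and 11.7 percentage points for Ly6h, Cadps, Ildr2 and Acot1, with 28.1, 27.4, 29.5 and 21.5 at 3000 UMIs and 47.1, 43.1, 52.7 and 47.0 with all UMIs. For Cadps it was 18.4 with no upper limits, 16.6 with no doublet removal, 16.6 without Harmony, 15.7 with cells assigned one by one, 15.7 without cluster 26 and 17.4 without cluster 28. The mean difference over gene pairs (-0.13, and 1.22 and -1.49 by library) was 2.47 at 3000 UMIs and 13.4 with all UMIs.

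Uncalled log2 fold changes near 0 turned sign. Ildr2 in stromal cells was -0.039 with the replicate block and -0.18 to 0.84 without 1 library. In spermatogonia it was 0.21 with cells assigned one by one and -0.65 to 0.29 without 1 library, and in spermatocytes -0.78 at resolution 0.5 and -0.40 with cells assigned one by one. Cadps in spermatids was -0.18 with any count, -0.36 with no upper limits, -0.22 at resolution 2 and -0.10 to 0.13 without 1 library. The causes were not tested. Of the values for single genes outside Sertoli cells, 213 kept their direction and side of the threshold, 21 fell below it and 11 passed it. The settings on clusters 23, 26, 28 and 30, and the shares without 1 library, were chosen after seeing the data. With 1 or 2 UMIs of Ly6h in testis Sertoli cells, depth limits how large its difference is.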
